A study of Homo sapiens with 4 samples.

Results

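The genes described here are 10 markers and drivers of epithelial-mesenchymal transition (EMT): the cadherin genes CDH1, CDH2 and CDH3, the vimentin gene VIM, the fibronectin gene FN1, and the transcription factor genes SNAI1, SNAI2, TWIST1, ZEB1 and ZEB2. They were chosen by name, and every probe of the array that matched their symbols was taken, 14 probes of 34127. They are 10 of the 19062 genes that could be named on the array. RNA from SB cells, SAS tongue squamous carcinoma cells carrying shRNA-B against AEG-1 (also called LYRIC or MTDH), was hybridized with RNA from SCt control cells on 4 dual-channel Agilent arrays. SB RNA carried the red dye and SCt RNA the green dye on every array. Both populations were SAS cells that received a lentiviral pLKO.1 construct and were selected with puromycin at 2 μg/ml for 14 days. The control construct is the pLKO.1 vector in the labels and a scrambled shRNA in the paper. The methods speak of stable clones, and it is not stated how many clones each population holds.

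The arrays were made to look for genes downstream of AEG-1 in invasion and metastasis, and the comparison of SB with SCt cells asks here whether the EMT markers differ between these cells. In EMT, epithelial cells loosen their junctions and take on the shape and motility of mesenchymal cells. The zinc finger factors of the SNAI and ZEB families and the helix-loop-helix factors of the TWIST family repress the E-cadherin gene CDH1, while N-cadherin, vimentin and fibronectin increase in the classical form of the program. Squamous carcinoma cells often hold a mixed state with markers of both kinds, and P-cadherin (CDH3) is typical of basal epithelial cells.

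The labels call the 4 arrays biological replicates, and the study's methods speak of independent biological replicates in its in vitro comparisons without naming these arrays. Whether the 4 arrays came from separate cultures is not stated, so the p-values measure only the spread between these arrays, which may be technical. All arrays lay on 1 slide, 0 were dye-swapped, and the preference of a probe for a dye and the effect of the knockdown cannot be told apart. Between 85.4% and 90.3% of spots were well above background in the SB channel and between 84.7% and 90% in the SCt channel. MTDH, the target of the shRNA, was lower in SB cells by a log2 ratio of −3.18 ± 0.17 (SD over 4 arrays; adjusted p = 5.21e-10, limma), with −3.18, −3.01, −3.12 and −3.41 on arrays 1 to 4. All 10 keratinocyte markers, among them KRT5, KRT14 and TP63, were above background on every array in both channels.

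None of the 10 genes passed the test of a difference between SB and SCt cells. At its brightest probe, 0 of 10 genes had a limma p under 0.05 after Benjamini-Hochberg adjustment over all 28507 probes tested, beside 4.19% of all 16583 genes (1.22% higher and 2.97% lower in SB cells). Over all member probes the count was 0 of 12 tested, beside 3.7% of all probes, and at an unadjusted p under 0.05 it was 0 of 10 genes, beside 19.8% of all genes, and 1 of 12 probes, beside 18.7% of all probes. The 10 log2 ratios lay between −0.15 for VIM and 0.10 for CDH1, with a median of −0.03 where all genes had a median of 0.00. The 95% intervals of the 10 genes reached at most a 1.29-fold difference, the lower bound of VIM. A p that misses the threshold does not show equal levels. These intervals give the size of change that 4 arrays leave possible at each gene's brightest tested probe under this processing. Its offset makes fold changes of weak spots smaller. With the scanner software's ratios ZEB1 stood at −0.09 and ZEB2 at 0.11, in place of −0.03 and 0.05. CDH2 (0.01) and CDH3 (−0.01) had smaller ratios there. The intervals do not cover the second ZEB2 probe, which was not tested. Its mean log2 ratio was 0.42 with spots marked as outliers kept. Centring each array on its median instead of loess was the only setting tried with other calls. Under it CDH1, CDH2 and SNAI2 were past the threshold and higher in SB cells, beside 30.4% of all genes.

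**Figure D1:**
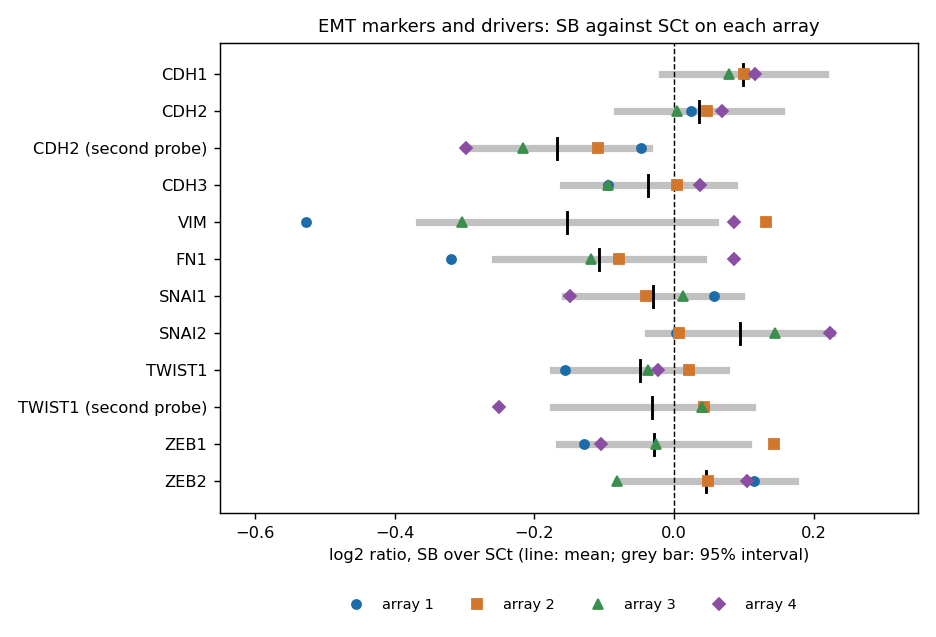
Log2 ratio of SB over SCt cells for the 12 tested probes of the EMT markers and drivers. Symbols are the 4 arrays, black lines the means and grey bars the 95% intervals from limma. The points of CDH1 lie together near 0.10, those of VIM spread from −0.53 to 0.13, and the interval of the second CDH2 probe alone does not reach 0, with an adjusted p of 0.157 (limma).

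The cadherins are the adhesion molecules whose exchange gives the classical picture of EMT. CDH1, which encodes E-cadherin, the adhesion molecule of epithelial junctions, was read by 1 probe (A_23_P206359) spotted 10 times per array. Its log2 ratio was 0.10, 0.10, 0.08 and 0.12 on arrays 1 to 4. The ratio was above 0 on each array and varied very little: only 0.319% of tested probes had a smaller SD between arrays. Each value is a mean over the probe's spots, which lowers the SD, so its rank beside probes spotted once is not like for like. The mean was 0.10 ± 0.015 (SD, n = 4 arrays; limma, adjusted p = 0.349), a 1.07-fold difference with a 95% interval of 0.988-fold to 1.16-fold. Limma weighs the spread of a single probe against that of all probes, whose median SD was 0.11. By the methods' t-test, which uses the spread of the probe alone, CDH1 was the 1 member of 10 with an unadjusted p under 0.05, beside 14.9% of all genes, and 0 members passed after adjustment.

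CDH2, the N-cadherin gene, which is raised in many carcinoma cells after EMT, was read by a pair of probes. The brighter (A_23_P38732) gave 0.02, 0.05, 0.00 and 0.07, with a mean of 0.04 ± 0.028 (SD, n = 4 arrays; limma, adjusted p = 0.773). The second probe (A_33_P3214159) gave −0.05, −0.11, −0.22 and −0.30, with a mean of −0.17 ± 0.11 (SD, n = 4 arrays; limma, adjusted p = 0.157). The probes thus lay on opposite sides of 0 on each array, and the mean over both was −0.07. CDH3, which encodes P-cadherin, gave −0.09, 0.00, −0.09 and 0.04 at its 1 probe (A_23_P49155), higher in SB cells on 2 arrays and lower on 2. Its mean was −0.04 ± 0.068 (SD, n = 4 arrays; limma, adjusted p = 0.779).

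VIM encodes the intermediate filament protein of mesenchymal cells, and FN1 a matrix glycoprotein that such cells secrete. VIM (probe A_23_P161190) gave log2 ratios of −0.53, 0.13, −0.30 and 0.09 on arrays 1 to 4. SB cells were lower on arrays 1 and 3 and higher on arrays 2 and 4, and 97.7% of tested probes had a smaller SD. The mean was −0.15 ± 0.32 (SD, n = 4 arrays; limma, adjusted p = 0.430), with a 95% interval of 0.777-fold to 1.04-fold. FN1 (A_24_P334130) gave −0.32, −0.08, −0.12 and 0.09, and its mean was −0.11 ± 0.17 (SD, n = 4 arrays; limma, adjusted p = 0.431). The lowest ratio of both genes was that of array 1.

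The transcription factor genes differed less than the spread between arrays. SNAI1 (A_23_P131846), the gene of Snail, gave 0.06, −0.04, 0.01 and −0.15, with a mean of −0.03 ± 0.089 (SD, n = 4 arrays; limma, adjusted p = 0.833). SNAI2 (A_23_P169039), the gene of Slug, which basal keratinocytes also express, gave 0.00, 0.01, 0.14 and 0.22. All 4 ratios of SNAI2 were at or above 0, and the mean was 0.09 ± 0.11 (SD, n = 4 arrays; limma, adjusted p = 0.432). CDH1, CDH2 and SNAI2 were the 3 members with the same sign on all 4 arrays at their brightest probe, which 27.9% of all genes had.

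TWIST1 was read by a pair of probes. The brighter (A_33_P3414591) gave −0.16, 0.02, −0.04 and −0.02, with a mean of −0.05 ± 0.076 (SD, n = 4 arrays; limma, adjusted p = 0.701). The second (A_23_P71073) gave 0.04, 0.04 and 0.04 on arrays 1 to 3 and −0.25 on array 4, so array 4 alone set the sign of its mean, −0.03 ± 0.15 (SD, n = 4 arrays; limma, adjusted p = 0.847). ZEB1 (A_33_P3374723) gave −0.13, 0.14, −0.03 and −0.10, with a mean of −0.03 ± 0.12 (SD, n = 4 arrays; limma, adjusted p = 0.849). ZEB2 (A_23_P142560) gave 0.11, 0.05, −0.08 and 0.10, with a mean of 0.05 ± 0.090 (SD, n = 4 arrays; limma, adjusted p = 0.727).

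A second probe of ZEB1 and a second probe of ZEB2 were not tested. That of ZEB1 (A_33_P3640690) was well above background on 1 array only in each channel. That of ZEB2 (A_33_P3243832) was above background on all arrays, but the scanner software marked its spot as an outlier on all 4. With the marked spots kept, its log2 ratios were 0.20, 0.07, 1.05 and 0.34, all higher in SB cells (mean 0.42 ± 0.44 SD, n = 4 arrays; limma, adjusted p = 0.110).

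While the ratios of SB over SCt cells stayed near 0, the levels of CDH1, VIM and FN1 differed between the arrays in both cell populations together. The level is the log2 intensity of a channel after loess and scaling of the mean intensities to the same distribution on each array, and it compares 1 probe between arrays, not 1 gene with another. The level of CDH1 in SB cells was 9.91, 10.73, 10.68 and 9.34 on arrays 1 to 4, and in SCt cells 9.80, 10.63, 10.60 and 9.22. The level of VIM was 13.23, 12.97, 13.03 and 14.65 in SB cells and 13.75, 12.84, 13.33 and 14.57 in SCt cells. The level of FN1 was 9.98, 9.56, 9.83 and 11.29 in SB cells and 10.30, 9.64, 9.95 and 11.21 in SCt cells. Array 4 thus had the lowest CDH1 and the highest VIM and FN1 in SB and in SCt cells alike, and array 2 the highest CDH1 and the lowest VIM and FN1. The SB and SCt levels on an array come from the same spots, so this agreement is not a second, independent observation. The values of SB and SCt cells overlapped for each of these genes.

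The range between arrays of the mean level of both channels was 1.40 log2 units for CDH1, 1.71 for VIM and 1.65 for FN1, or 2.63-fold, 3.26-fold and 3.14-fold. Of the 28130 probes with values on all arrays, 99.1% had a smaller range than CDH1, 99.6% than VIM and 99.6% than FN1, and the median range was 0.34. Without array 4 the range of VIM was 0.58 and that of FN1 0.54, while that of CDH1 was 0.82. These genes were singled out after their levels were seen, so the ranges are a description without a test. In RNA from whole cultures, fewer cells of a type and less RNA per cell cannot be told apart. Both populations were read on the same arrays. A difference between cultures and a technical difference between arrays, in labelling or hybridization, therefore cannot be told apart either.

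**Figure D2:**
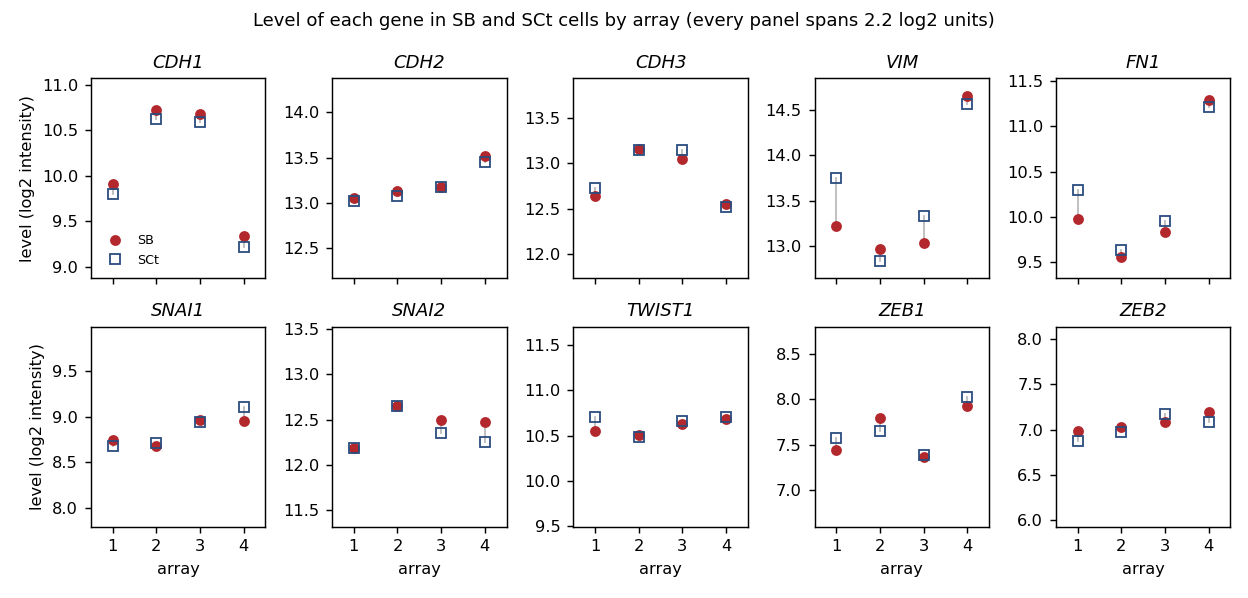
Level (log2 intensity) of each gene at its brightest probe in SB cells (filled circles) and SCt cells (open squares) on arrays 1 to 4, every panel spanning 2.2 log2 units. The paired symbols lie close together on each array, while CDH1 is lowest and VIM and FN1 are highest on array 4.

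The other members varied less between arrays. CDH3 had its lowest level on array 4 and its highest on array 2 in both populations, as CDH1 did, with a range of 0.62 in the mean of both channels. The brighter CDH2 probe was highest on array 4 in both (range 0.44), and so was the second (0.75). ZEB1 was also highest on array 4 in SB and SCt cells, with a range of 0.60, and 85.3% of probes had a smaller one. SNAI2 ranged over 0.47 and SNAI1 over 0.33. ZEB2 and the TWIST1 probes varied little, with ranges of 0.21 for ZEB2 and 0.20 and 0.10 for the TWIST1 probes. For all 10 genes the range between arrays was larger than the mean difference between SB and SCt cells. A range and a mean are unlike measures. The median range of all probes, 0.34, was also larger than the largest of these differences, 0.15 for VIM, so this does not set the members apart. The lowest level fell on the same array in SB and SCt cells for 9 of the 10 genes, and the highest for 7. Both populations are read on the same arrays, so small ratios alone favour such agreement. The share of all genes for which it held was not computed.

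The 250 bases before the start of VIM and FN1 are shown (RefSeq, GRCh38.p14; 5′ to 3′ on the strand of the gene). The genes were picked after their levels were seen, and a link between these bases and the levels was not tested. The table of promoters used lists 5 of the 10 genes, CDH2, VIM, FN1, ZEB1 and ZEB2. Capitals mark the GC box (GGGCGG, the site of SP1), the cyclic AMP response element (TGACGTCA) and the E-box CACCTG that SNAI and ZEB factors bind, each searched on both strands. The VIM window is chr10:17227991-17228240 on the plus strand and the FN1 window chr2:215436069-215436318 on the minus strand.
VIM: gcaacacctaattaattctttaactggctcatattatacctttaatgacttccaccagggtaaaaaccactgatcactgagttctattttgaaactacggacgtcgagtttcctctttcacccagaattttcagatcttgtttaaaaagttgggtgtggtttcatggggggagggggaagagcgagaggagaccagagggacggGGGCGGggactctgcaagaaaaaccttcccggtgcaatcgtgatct
FN1: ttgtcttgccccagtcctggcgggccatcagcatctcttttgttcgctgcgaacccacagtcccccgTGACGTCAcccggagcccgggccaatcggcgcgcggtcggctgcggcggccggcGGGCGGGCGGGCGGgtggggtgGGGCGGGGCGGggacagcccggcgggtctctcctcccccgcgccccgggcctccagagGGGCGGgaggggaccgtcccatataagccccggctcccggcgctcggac

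The VIM window holds 1 GC box, 46 bases before the start. The FN1 window holds 6 matches to the GC box, some of which overlap, and 1 cyclic AMP response element 183 bases before the start. Among all 35116 promoters of this length in the table, 42.6% hold the GC box, 1.65% the cyclic AMP response element and 17.5% the E-box. Neither window holds the E-box, and of the 5 listed members only ZEB1 has it, at 2 of its 7 listed starts. These matches describe the letters of the window and say nothing about binding.

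Of 34 epithelial markers measured (claudins, keratins, desmosomal and other junction genes; CDH1 and CDH3 not counted), 1 was higher in SB cells and 0 were lower, which is 2.94% beside 4.19% of all genes, and the median log2 ratio was 0.00. Between arrays, 21 of the 34 genes had the lowest mean level on array 4, as CDH1 and CDH3 did, beside 26.8% of all genes. Among them were the tight junction gene CLDN7, with levels of 9.92, 11.59, 11.40 and 9.90 in SB cells and 10.39, 11.69, 11.48 and 9.88 in SCt cells, and the simple keratin gene KRT19, with 12.58, 13.37, 13.49 and 12.01 in SB cells and 12.92, 13.54, 13.63 and 11.98 in SCt cells. EPCAM, an epithelial adhesion gene, did not follow this order, with 13.33, 13.80, 13.76 and 13.55 in SB cells.

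The keratinocyte markers moved between arrays in the same way, while between SB and SCt cells 0 of 10 passed limma's test after adjustment and 4 had an unadjusted p under 0.05, beside 19.8% of all genes. The mean level was lowest on array 4 for 7 of 10 keratinocyte markers, beside 26.8% of all genes. The median deviation of the 10 markers from their mean over arrays was −0.37 in SB cells and −0.50 in SCt cells on that array. KRT17, a keratin of activated keratinocytes, had mean levels of 15.34, 15.47, 15.63 and 14.04, whereas TP63, the basal lineage factor, stayed at 14.29, 14.12, 14.09 and 14.21. The summed level of the 10 markers, on the linear scale, ranged from 183234 to 276070 in SB cells and from 173093 to 290655 in SCt cells. Of 8 fibroblast markers, 4 were above background on all arrays in each channel, while COL3A1 and LUM were not well above background on any array. The summed level of the fibroblast list ranged from 5429 to 9503 in SB cells and from 5800 to 9644 in SCt cells. COL1A1, a collagen gene that fibroblasts express strongly, was highest on array 4 at 13.06 in SB and 13.07 in SCt cells, against 12.12 to 12.70 and 12.23 to 12.57 on the other arrays. This gene made up most of the sum: the summed level of the other 3 measured fibroblast markers, COL1A2, DCN and FAP, ranged from 609.5 to 691.8 in SB cells and from 547.8 to 755.7 in SCt cells. The range between arrays was 0.07 for COL1A2, 0.13 for DCN and 0.51 for FAP on the log2 scale. The part of any of these lists in the levels of CDH1, VIM and FN1 was not tested. Of the endothelial and leukocyte lists, 4 of 6 markers each were above background on all arrays, and EMCN and HLA-DRA on none. The summed level of the leukocyte list ranged from 17946 to 24527 in SB cells and from 18330 to 24207 in SCt cells. That of the endothelial list ranged from 1527 to 1599 in SB cells and from 1449 to 1656 in SCt cells. Levels do not compare 1 gene with another, so these sums do not rank the lists.

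**Figure D3:**
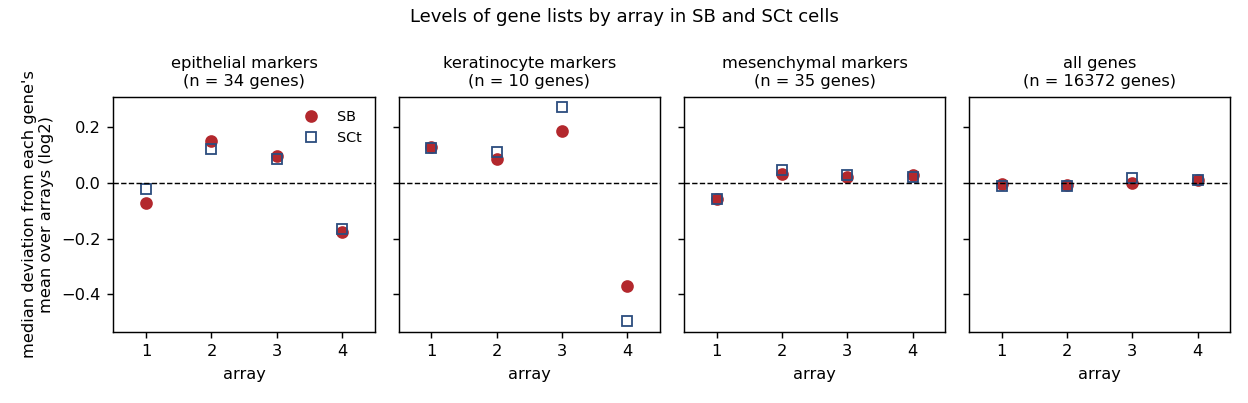
Median deviation of each list's genes from their own mean over the 4 arrays (log2), in SB cells (filled circles) and SCt cells (open squares). The epithelial and keratinocyte markers lie lowest on array 4 in both populations, at −0.18 and −0.37 in SB cells, while the medians of the mesenchymal markers and of all genes lie near 0.

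Of the mesenchymal markers, 36 were measured (collagens, other matrix genes, receptors and cytoskeletal genes, with VIM, FN1 and CDH2 not counted). Of these 36, 3 were higher and 2 were lower in SB cells, 13.9% beside 4.19% of all genes. The other 31 did not pass the test. A further 7, among them COL3A1 and FBN1, did not pass the filter on signal. LOX, which crosslinks collagen, rose by 0.52 ± 0.11 (SD over 4 arrays; adjusted p = 7.49e-04, limma), and VCAN, the gene of the matrix proteoglycan versican, by 0.50 ± 0.10 (adjusted p = 8.79e-04, limma). The offset makes fold changes of weak spots smaller, and with the scanner software's ratios LOX stood at 0.79 and VCAN at 0.77. TGFBI, a matrix protein induced by TGF-beta, rose by 0.30 ± 0.17, with 0.37, 0.35, 0.05 and 0.42 on arrays 1 to 4. Its adjusted p was 0.0347 (limma), and it was not past 0.05 without array 1 (0.111) or array 2 (0.145). The genes that fell were AXL, a receptor tyrosine kinase linked to mesenchymal carcinoma cells, at −0.42 ± 0.25 (adjusted p = 0.0180, limma), and LOXL2, a relative of LOX, at −0.41 ± 0.16 (adjusted p = 0.00674, limma). Without array 3 AXL (adjusted p = 0.107) and LOXL2 (0.0981) were not past the threshold in limma, and AXL was not without array 2 (0.0543). LOX and LOXL2 thus changed in opposite directions, and the median of the whole list was 0.00. Between arrays, the median deviation of this list's genes lay between −0.07 and 0.04, while single genes moved both ways. On array 4, 12 of 35 were highest and 9 lowest, 34.3% and 25.7%, close to the 31.6% and 26.8% of all genes.

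Among 19 other transcription factors of EMT, 1 was higher and 2 were lower in SB cells, 15.8% beside 4.19% of all genes. The median log2 ratio of the list was 0.03. FOXQ1, a forkhead factor that can repress CDH1, gave −0.69, −0.99, −0.80 and −0.30, with a mean of −0.70 ± 0.29 (SD, n = 4 arrays; limma, adjusted p = 0.00166), but it was not past the threshold without array 3 (−0.66, adjusted p = 0.0661). TWIST2, the paralogue of TWIST1, gave −0.40, −0.51, −0.61 and −0.67, with a mean of −0.55 ± 0.12 (adjusted p = 5.57e-04 from limma over 4 arrays). Its level was 10.55, 10.69, 10.51 and 10.48 in SB cells and 10.96, 11.20, 11.12 and 11.15 in SCt cells, so the populations did not overlap. That held for 2.31% of all genes with values on every array, in either direction, and for 0 of the 10 members. Whether the ratios of TWIST1 and TWIST2 differ from each other was not tested. ID2, an inhibitor of helix-loop-helix factors, gave 0.91, 0.21, 0.33 and 0.22, with a mean of 0.42 ± 0.33 (SD over 4 arrays; adjusted p = 0.0420, limma), and its second probe a mean of 0.40. Without array 1 the mean of ID2 was 0.25 (adjusted p = 0.0800, limma), and it missed the threshold without array 2 (0.0512) and array 3 (0.215) as well.

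Of 14 regulators of the epithelial state, 3 were lower in SB cells and 0 were higher, 21.4% beside 4.19% of all genes, with a median log2 ratio of 0.01. EHF, an epithelial ETS factor, fell by 0.60 on the log2 scale, and KLF5, a factor of proliferating epithelium, by 0.29. ELF3, another epithelial ETS factor, fell by 0.42 with values on 3 arrays. It lies outside the naming rule and was chosen after its values were seen. The adjusted p was 0.00148 for EHF, 0.0378 for KLF5 and 0.0124 for ELF3 (limma). KLF5 was not past 0.05 without array 1 (0.117), array 2 (0.143) or array 3 (0.229), EHF was not without array 3 (0.0535), and ELF3 was not without array 2 (0.114) or array 3 (0.0850).

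Of 28 genes of the signals that induce EMT, 2 were higher and 1 was lower in SB cells, 10.7% beside 4.19% of all genes. The median log2 ratio of the list was 0.03. TGFB2, a ligand of the TGF-beta pathway, gave 0.49, 0.44, 0.43 and 0.47, with a mean of 0.46 ± 0.025 (SD, n = 4 arrays; limma, adjusted p = 8.13e-04). SMAD7, an inhibitor of the same pathway, rose by 0.27 (adjusted p = 0.0193), and MET, the receptor of hepatocyte growth factor, fell by 0.35 (adjusted p = 0.00626, limma for both). Without array 3 SMAD7 (0.0981) and MET (0.0681) were not past an adjusted p of 0.05 in limma, and SMAD7 was not without array 1 (0.0737) or array 2 (0.0836) either. Of 20 corepressors and turnover factors of SNAI and ZEB, 1 was called, 5% beside 4.19% of all genes, and the median of the list was −0.07. The called gene was the corepressor gene CTBP2, at −0.34 (adjusted p = 0.0168, limma). Its other probe gave −0.17 (adjusted p = 0.149), and without array 3 the brighter one was not past the threshold (0.129, limma).

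**Figure D4:**
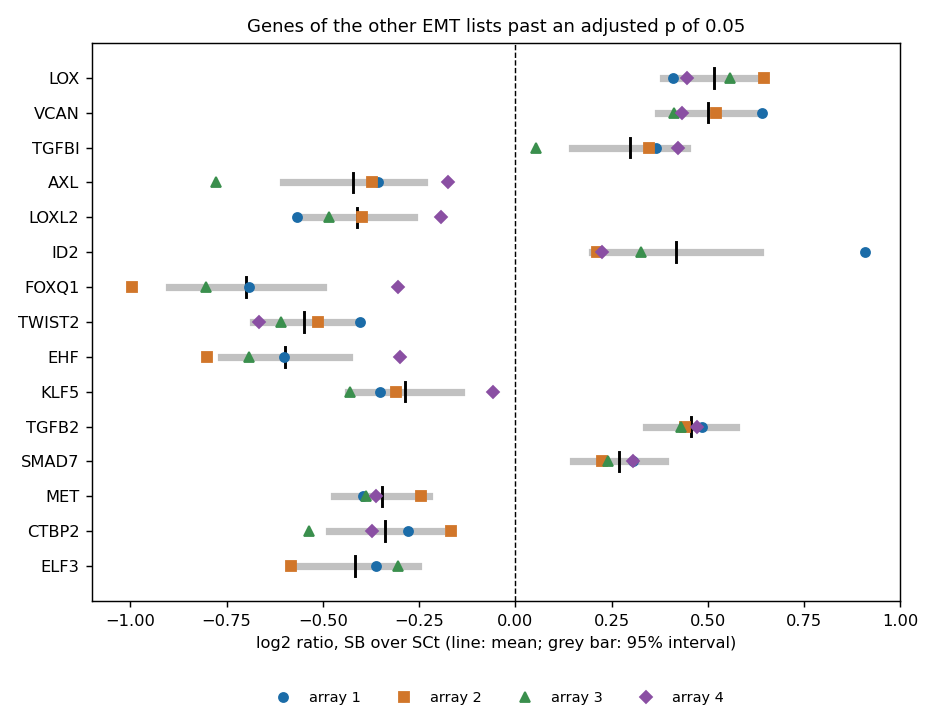
Log2 ratio of SB over SCt cells for 15 of the 16 genes of the other EMT lists past an adjusted p of 0.05 in limma. Symbols are the 4 arrays, black lines the means and grey bars the 95% intervals; ELF3 has values on 3 arrays. TGFB2 and SMAD7 vary little between arrays, while ID2 on array 1 lies apart at 0.91.

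E-cadherin and N-cadherin are held to the actin skeleton by catenins. Of the 20 measured genes of the cadherin-catenin complex and the other classical cadherins, 0 passed limma's test after adjustment and 2 had an unadjusted p under 0.05, beside 19.8% of all genes, with a median log2 ratio of 0.03. CTNNA1 had a log2 ratio of −0.06 ± 0.11, CTNNB1, the gene of beta-catenin, 0.09 ± 0.33, CTNND1 0.07 ± 0.17 and JUP, the gene of plakoglobin, −0.16 ± 0.18 (SD, n = 4 arrays each). The second probes of CTNNB1 and CTNND1 lay on the other side of 0, at −0.06 and −0.18, and that of CTNNA1 gave −0.13. Those of CTNND1 and CTNNA1 were lower in SB cells on all 4 arrays (adjusted p = 0.106 and 0.227, limma). Between arrays JUP was lowest on array 4 in both populations, at 11.62 in each, with 12.14 to 12.84 in SB cells and 12.54 to 12.89 in SCt cells on the other arrays. Of the antisense and host RNAs of the members, 2 of 6 were matched and neither was called.

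Over all these lists together, without the 10 members, 7 genes were higher and 9 lower of 173 measured, 9.25% beside 4.19% of all genes, and their median log2 ratio was 0.00, as that of all genes. The count of 16 was 15 without array 1, 9 without array 2, 6 without array 3 and 20 without array 4. It was 55 under median centring (39 higher and 16 lower, beside 3359 higher and 1682 lower of all genes) and 0 by the methods' t-test after adjustment. Of the 16 genes, 11 remained past the threshold under the software's own ratios, TGFBI, AXL, ID2 and KLF5 being among those lost, and 12 under median centring, where AXL, KLF5, CTBP2 and ELF3 were lost. In the same comparison MMP1, the collagenase gene that the study followed up, stood at −1.65 ± 0.33 (SD over 4 arrays; adjusted p = 5.26e-06, limma), while the means of the 10 EMT markers and drivers lay between −0.15 and 0.10.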

How the data were processed

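For each of 4 dual-channel arrays the authors deposited a file from the scanner software (Agilent Feature Extraction 10.5.1.1, per the submitters' processing notes), with red and green median intensity and local background per spot, not normalized. The deposited files also hold the software's log10 ratio of red over green after its own dye normalization, and the authors deposited a series table of log2 ratios, SB over SCt. Between 97.6% and 97.9% of its values per array equalled the software's processed ratio within 0.001. The planned fit named mean intensities, in place of which the median intensities were used. Each labelling took 15 μg of total RNA, per the labels.

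Processing used limma 3.58.1 in R 4.3.3: normexp with an offset of 50, which makes fold changes of weak spots smaller, removal of 1377 control spots, omission of spots marked as outliers (1.89% to 2.71% per array), loess within each array and averaging of a probe's spots. No spot was saturated. Probes needed values on 2 or more arrays and a spot well above background on each array in at least the SB or at least the SCt channel, which left 28507 of 34127 probes. Mean log2 ratios were tested against 0 with lmFit and eBayes (intercept only), with Benjamini-Hochberg adjustment over all kept probes and 0.05 as the threshold. Levels per channel were taken after Aquantile scaling. The 95% intervals are limma's. Probes were named by accession in RefSeq (GRCh38.p14), 24826 in all, and the other 9301 stayed unnamed. A gene was represented by its brightest kept probe. No probe positions are given. Listed genes that matched no probe were not analysed here: TJP3, AFDN, MIR200CHG, MIR205HG, EED, FBXO11, FBXO45, FBXL5, ZEB2-AS1, VIM-AS1, TWIST1-AS1 and FN1-DT.

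Named genes were all members with every probe, MTDH, MMP1, the catenins CTNNA1, CTNNB1, CTNND1 and JUP, and of each EMT list up to 5 genes per direction past the threshold with the same sign on all 4 arrays. Genes whose levels between arrays are given were chosen after their values were seen. The members and lists were chosen with earlier results of these data known. The called gene of the epithelial list counts in all totals and is not reported here by name. The steps were tested on simulated arrays. Alternatives were the mean over a gene's probes, each array left out, the methods' t-test, trend and robust options of eBayes, median centring, the software's ratios, the series table, normexp without an offset, no background correction, marked spots retained, all probes tested whatever their signal, and only probes above background in both channels. For the ranges of level, added after the data were seen, they were scaling to the median, the software's processed signals, each channel alone and each array left out.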

Additional observations from a re-analysis of the deposited data

Results flagged for a closer look

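In 2 of 33 probes of the members and named genes with values on all 4 arrays, a single array lay far from the other arrays. The gap to the nearest array, divided by the whole range, was 0.992 for the second TWIST1 probe (A_23_P71073), whose log2 ratio was −0.25 on array 4 and 0.04 on each other array. It was 0.835 for ID2 (A_23_P143143), at 0.91 on array 1 and 0.21 to 0.33 on the others, and the second ID2 probe also had its highest ratio, 0.85, on array 1. Both lie above the critical value for 4 samples, and chance alone marks about 1 in 20 such groups.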

How the results depend on the processing

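The number of members past the threshold was 0 of 10 in all settings but median centring, where 3 genes and 3 probes passed: CDH1 at 0.18, CDH2 at 0.21 and SNAI2 at 0.23. There 8939 probes passed, 5599 of them higher in SB cells, against 1055 and 376, the share of higher calls among genes was 66.6% against 29.1%, and 55 other EMT genes passed. The median log2 ratio of all genes was 0.07 in place of 0.00. Median centring also turned the sign of CDH3 (0.13), VIM (0.044), SNAI1 (0.0012), TWIST1 (0.040), ZEB2 (−0.17) and CTNNA1 (0.19). The mean over a gene's probes turned CDH2 (−0.066) and CTNND1 (−0.058). With an array left out, the ratio lay between −0.059 and 0.0098 for SNAI1 (above 0 without array 4), −0.087 and 0.0044 for ZEB1 (above 0 without array 1), −0.045 and 0.22 for CTNNB1 (below 0 without array 3) and −0.014 and 0.11 for CTNND1 (below 0 without array 4). The software's ratios gave 225 higher probes. In the series table of the authors, 698 probes passed (224 higher), and with the trend and robust options 579 (102 higher). The methods' t-test gave 0 probes, 0 higher and 0 other EMT genes after adjustment, and MTDH at −3.18 had an adjusted p of 0.144. With each array left out, 204 to 1991 probes passed, 68 to 859 of them higher, and 6 to 20 other EMT genes. The range of level then lay between 0.58 and 1.71 for VIM and between 0.54 and 1.65 for FN1. The cause of these shifts was not tested. The slide as a block was not run, since all arrays share 1 slide. Each ratio already pairs the populations on 1 array, so there was no further block to fit. Precision is limited by having 4 arrays, and the second ZEB1 probe, above background on 1 array only, was tested only without the filter on signal.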
